A study of Mus musculus with 6 samples.

Results

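MHC class II molecules are pairs of an alpha and a beta chain that carry peptides from endosomes to the cell surface, where CD4 T cells read them. B cells and dendritic cells are their main makers, and mouse T cells are usually described as making little. The pathway was followed here through 10 transcripts, chosen by symbol: the presenting chains H2-Aa, H2-Ab1 and H2-Eb1, the invariant chain Cd74, the peptide editor H2-M (H2-DMa, H2-DMb1 and H2-DMb2), its inhibitor H2-O (H2-Oa and H2-Ob) and the transactivator Ciita. All 10 were among the 23284 genes of the count files, and all 10 were among the 12951 genes that passed the filter on low counts.

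The libraries came from lymph node cells of C3H/HeJ mice, an inbred strain in which alopecia areata, an autoimmune loss of hair, is studied. Cells were sorted by flow cytometry as CD3+CD8+CD44+CXCR3+, the surface of antigen-experienced CD8 T cells, and split by NKG2D, a receptor that can activate killer cells and is made from the gene Klrk1. Each population gave 3 libraries, numbered 1 to 3, and the series text speaks of 3 separate mice. Any age, disease state or treatment was not given in the sources used here.

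Gene counts per library were 41168816 to 89184611. Levels are in CPM (counts per 1000000) on library sizes scaled by the trimmed mean of M-values (TMM). Klrk1, the gene of the sort, stood at 409, 312 and 342 CPM in NKG2D+ libraries 1, 2 and 3 and at 34.5, 37.1 and 36.1 CPM in NKG2D- libraries. Its fold within the pairs of replicates 1, 2 and 3 was 11.9, 8.40 and 9.47. Summed over 7 genes of the T-cell receptor complex, CD8 and Lck, T-cell transcripts stood at 4279 to 5966 CPM in NKG2D+ and 4415 to 4791 CPM in NKG2D- libraries.

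Class II transcripts were present in all 6 libraries, at 38 to 47312 counts per member and library. The 9 members other than H2-Oa had a higher mean in NKG2D+ cells, by 1.58 to 2.91 times, but none of the 10 passed the test. Across all genes, 261 of 12951 (2.02%) passed edgeR's test at an adjusted p under 0.05, with 1.65% higher and 0.363% lower in NKG2D+. These shares stand beside the counts of list genes that passed the same test below. The median log2 fold change of the 10 members was 1.34, beside -0.01 for all genes tested. At an unadjusted p under 0.05, 8 members were higher, beside 12.5% of all genes, and with replicate number as a block 0 were. In either direction, 2731 of the 12951 genes had such a p without the block and 3306 with it. With that block 0 members passed after adjustment, beside 0.44% of genes as higher, and with limma-voom 0 passed, beside 0.463%. DESeq2 called 1 member, H2-DMb1 (adjusted p = 0.0310, and 0.0310 to 0.673 over 15 alternatives), beside 7.89% of genes as higher. All 10 fitted log2 fold changes were positive under each of the 3 scalings tried.

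H2-Aa and H2-Ab1 encode the alpha and beta chains of I-A, a class II molecule found in all common mouse strains. H2-Aa stood at 174, 62.7 and 70.3 CPM in NKG2D+ libraries 1, 2 and 3, and at 20.0, 61.4 and 39.9 CPM in NKG2D- libraries 1, 2 and 3. The highest and the lowest value thus came from the same replicate number, while both populations of replicate 2 lay within 2.12% of each other. The NKG2D+ mean was 102 ± 62.2 CPM and the NKG2D- mean 40.4 ± 20.7 CPM (SD, n = 3 each). The log2 fold change was 1.34 (SE 0.52, adjusted p = 0.209).

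For H2-Ab1 the NKG2D+ libraries gave 101, 41.7 and 47.6 CPM and the NKG2D- libraries 13.7, 36.4 and 25.2 CPM. Its groups did not overlap, but the lowest NKG2D+ library was only 14.5% above the highest NKG2D- library. The log2 fold change was 1.34 (SE 0.45, adjusted p = 0.161). H2-Eb1, the beta chain of the second class II molecule I-E, stood at 150.5, 59.8 and 64.4 CPM in NKG2D+ and 16.2, 54.9 and 37.0 CPM in NKG2D- cells. Again replicate 1 held both extremes and replicate 2 showed next to no gap, with a fold of 1.09 in that pair. Its log2 fold change was 1.34 (SE 0.52, adjusted p = 0.205).

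The partner of H2-Eb1 is the I-E alpha chain. The annotation of C57BL/6, the strain of the reference genome, lists it as the pseudogene H2-Ea-ps, because that strain has lost it, whereas C3H mice carry a working copy. H2-Ea-ps, which is no member, stood at 83.8, 34.1 and 39.0 CPM in NKG2D+ and 8.59, 32.6 and 23.0 CPM in NKG2D- cells. Its ratio to H2-Eb1 lay between 0.530 and 0.622 in the 6 libraries. H2-Eb2, a beta-chain gene next to H2-Eb1, was low, at 2.19 to 6.45 CPM in NKG2D+ and 0.353 to 1.99 CPM in NKG2D- libraries. Neither passed the test (adjusted p = 0.229 and 0.231). Class II chains are highly polymorphic, and reads of the C3H haplotype were aligned to a genome of another strain, so levels compared between these genes may be low where the haplotypes differ. The part of this in the levels was not tested.

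Cd74 encodes the invariant chain, which fills the groove of new class II molecules and leads them to endosomes. It was the most abundant member, at 720, 268 and 323 CPM in NKG2D+ and 83.3, 235 and 161 CPM in NKG2D- cells. It made up 51.7% of the summed mean of the 10 members in NKG2D+ and 46.5% in NKG2D- cells. All 3 pairs were higher in NKG2D+, by 8.64, 1.14 and 2.01 times in replicates 1, 2 and 3. Its adjusted p of 0.160 was the smallest of the 10, at a log2 fold change of 1.45 (SE 0.49).

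**Figure D1:**
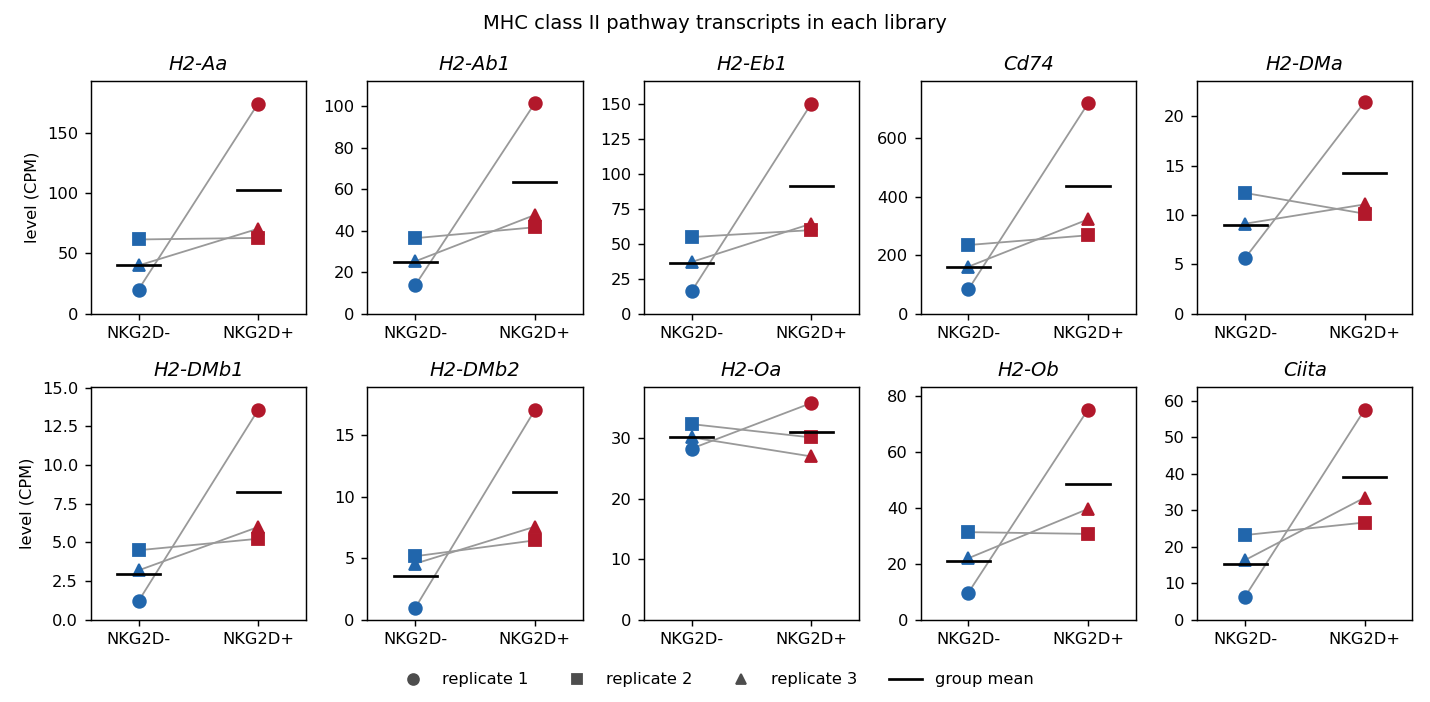
Level in CPM of each of the 10 transcripts (vertical axis, from 0) in NKG2D- (blue) and NKG2D+ (red) libraries; marker shape gives the replicate number, grey lines join same-numbered libraries and black bars are group means. Replicate 1 spans the widest gap, as for Cd74 at 83.3 and 720 CPM, while all libraries of H2-Oa lie between 27.0 and 35.8 CPM.

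H2-M is a class II relative in endosomes that strips the invariant chain remnant from the groove and selects stable peptides. Its beta chain has 2 gene copies in the mouse. H2-DMb1 stood at 13.6, 5.24 and 5.998 CPM in NKG2D+ and 1.21, 4.50 and 3.20 CPM in NKG2D- cells. H2-DMb2 stood at 17.0, 6.45 and 7.55 CPM against 0.957, 5.16 and 4.55 CPM. Neither gene's groups overlapped, and the fold in the pair of replicate 1 was 11.2 for H2-DMb1 and 17.8 for H2-DMb2. The NKG2D- library 1 held only 48 and 38 counts of them. Their log2 fold changes were 1.46 (SE 0.54, adjusted p = 0.193) and 1.52 (SE 0.63, adjusted p = 0.232). The longest coding transcripts of these copies are identical at 94.8% of 1211 aligned bases, with a shared run of 221 bases. Reads from such stretches cannot be placed uniquely, so the separate levels of H2-DMb1 and H2-DMb2, and their sum, are uncertain.

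H2-DMa is the single alpha chain of H2-M. NKG2D+ libraries gave 21.4, 10.1 and 11.1 CPM and NKG2D- libraries 5.62, 12.2 and 9.11 CPM. The groups overlapped, since NKG2D- library 2 exceeded NKG2D+ libraries 2 and 3. The log2 fold change of 0.66 (SE 0.38, adjusted p = 0.377) fell to -0.01 without both libraries of replicate 1. H2-DMa per unit of its beta chains (H2-DMb1 plus H2-DMb2) came to 0.701, 0.866 and 0.816 in NKG2D+ and 2.59, 1.27 and 1.18 in NKG2D- cells. They are ratios of CPM not scaled by exon length, over an uncertain sum, and give no proportion of the chains. These ratios did not overlap (two-sided exact permutation p = 0.1, the lowest for 3 against 3, and exact paired p = 0.25, the lowest for 3 pairs). In the GENCODE M21 annotation, 10.4% of the exonic bases of H2-DMa also lie in exons of Brd2 on the other strand. Brd2, a bromodomain gene, held 18028 to 40409 counts, and its part in the counts of H2-DMa was not tested.

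H2-O is a heterodimer that holds H2-M back and is known mainly from B cells and thymus. H2-Ob, the beta chain, varied like the presenting chains, at 75.1, 30.7 and 39.6 CPM in NKG2D+ and 9.72, 31.3 and 22.0 CPM in NKG2D- cells. The fitted log2 fold change was 1.199 (SE 0.48, adjusted p = 0.219). Its groups overlapped by a small margin in replicate 2. H2-Oa, the alpha chain, stood at 35.8, 30.1 and 27.0 CPM against 28.3, 32.3 and 30.1 CPM. That is a mean of 30.9 ± 4.47 in NKG2D+ and 30.2 ± 2.02 in NKG2D- cells (SD, n = 3 each), with a log2 fold change of 0.03 (SE 0.12, adjusted p = 0.902).

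The ratio of H2-Oa to H2-Ob in CPM ran from 0.476 in NKG2D+ library 1 to 2.91 in NKG2D- library 1. It is not scaled by exon length, which is 1088 bases for H2-Oa and 3512 for H2-Ob. Per base of exon, H2-Oa lay above H2-Ob in every library. By library the ratio in CPM came to 0.476, 0.981 and 0.681 in NKG2D+ and 2.91, 1.03 and 1.37 in NKG2D- cells. The populations did not overlap in this ratio (two-sided exact permutation p = 0.1 and exact paired p = 0.25, the lowest each design allows). H2-Oa made up 15.3% of the summed 10 members in NKG2D- library 1 and 2.62% in NKG2D+ library 1. In GENCODE M21 the whole of H2-Oa lies inside BC051537, an antisense gene, which shares 22.8% of the exonic bases of H2-Oa. BC051537 held 0 to 10 counts per library. The library kit named in the labels does not mark strand, so reads of H2-Oa and of an antisense transcript cannot be told apart.

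Ciita is a coactivator without DNA binding of its own that switches on class II genes by joining factors already bound at their promoters. It has several promoters used by different cell types, which gene counts do not separate. Ciita stood at 57.6, 26.7 and 33.5 CPM in NKG2D+ and 6.35, 23.2 and 16.4 CPM in NKG2D- cells. The ranges did not overlap, and the pair folds were 9.07, 1.15 and 2.05. Its log2 fold change was 1.35 (SE 0.48, adjusted p = 0.180). As a share of Cd74, Ciita came to 8.002%, 9.94% and 10.4% in NKG2D+ and 7.62%, 9.88% and 10.2% in NKG2D- cells, so same-numbered libraries of both populations were close.

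The conserved part of class II promoters holds an X box, bound by the RFX complex, and a Y box, bound by NF-Y, on which Ciita assembles. RefSeq promoter windows (GRCm38.p6, 250 bases before to 50 after the start) were found for 7 of 9 members looked up. H2-Ab1 and Ciita had none, and Cd74 was not looked up. The core of the Y box was searched as TGATTGG and a stretch of the X box as AACNNATG, on both strands, where N is any base. Both were chosen after the sequences were seen. Stretches of 80 bases are shown for the 6 members with TGATTGG, so that H2-Oa can be set beside its partner H2-Ob. They are written 5′ to 3′ on the gene's own strand, with TGATTGG and, where it stands before it, AACNNATG in capitals.
H2-Aa: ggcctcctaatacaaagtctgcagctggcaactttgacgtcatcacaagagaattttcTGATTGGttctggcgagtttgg
H2-Eb1: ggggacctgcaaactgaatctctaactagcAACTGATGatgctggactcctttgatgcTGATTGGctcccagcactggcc
H2-DMb1: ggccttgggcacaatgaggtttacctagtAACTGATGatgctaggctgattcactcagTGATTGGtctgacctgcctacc
H2-DMb2: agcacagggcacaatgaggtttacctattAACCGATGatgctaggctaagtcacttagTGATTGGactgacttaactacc
H2-Ob: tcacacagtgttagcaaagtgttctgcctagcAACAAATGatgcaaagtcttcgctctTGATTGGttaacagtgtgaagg
H2-Oa: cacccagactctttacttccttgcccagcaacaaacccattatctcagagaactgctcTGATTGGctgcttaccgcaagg

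The stretches lie at chr17:34287852-34287931 (minus strand) for H2-Aa, and on the plus strand at chr17:34305748-34305827 for H2-Eb1 and chr17:34153070-34153149 for H2-DMb1. Those of H2-DMb2, H2-Ob and H2-Oa are at chr17:34145099-34145178, chr17:34238788-34238867 and chr17:34092276-34092355, also on the plus strand. TGATTGG was found in 6 members, and AACNNATG followed by it within 40 bases in 4 of them, at a spacing of 18 to 21 bases. H2-Oa and H2-Aa lacked the pair in these letters, and H2-DMa lacked both motifs in its windows. Of 32851 windows of the same length in the table, 7.82% held TGATTGG, 8.86% AACNNATG and 0.0578% (19 windows) the pair. Since the motifs were read from the members, the last share describes how uncommon these letters are and tests nothing.

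Per length, the members spanned a wide range. CPM per kilobase of exon (CPM per kb, GENCODE M21 lengths) averaged 309 ± 174 for Cd74 in NKG2D+ cells, followed by H2-Aa at 90.7 ± 55.1, H2-Eb1 at 54.9 ± 30.6 and H2-Ab1 at 52.5 ± 27.2 (SD, n = 3). H2-Oa came next at 28.4 ± 4.11 and H2-Ob at 13.8 ± 6.69. The editor chains lay at 5.32 to 5.92 and Ciita at 4.77 ± 1.98 CPM per kb. Cd74 lay above H2-Aa, H2-Ab1 above H2-Oa and H2-Oa above H2-Ob without overlap, and the other neighbours overlapped.

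The order changed in NKG2D- cells at H2-Oa, which stood next after H2-Aa, at 27.8 ± 1.85 CPM per kb. Cd74 led at 113 ± 53.6, with H2-Aa at 35.9 ± 18.4, and below H2-Oa came H2-Eb1 at 21.6 ± 11.6 and H2-Ab1 at 20.7 ± 9.38 CPM per kb (SD, n = 3). Only Cd74 against H2-Aa and H2-Ab1 against H2-Ob (5.98 ± 3.08) were apart without overlap among neighbours in this order.

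Members varied together from library to library. NKG2D+ library 1 was the highest of 6 for all 10 members, and NKG2D- library 1 the lowest for 9, with H2-Oa the exception. The 7 T-cell genes also summed highest in NKG2D+ library 1, at 5966 CPM against 4279 to 4791 CPM elsewhere. The shares of all genes with these extremes, or with the order that follows, were not counted. The full order of the 6 libraries was the same for 7 members, namely NKG2D+ 1, 3 and 2 and then NKG2D- 2, 3 and 1. The same 7 had groups that did not overlap, beside 15.1% of all genes that were higher in NKG2D+ without overlap. Groups without such overlap are always higher in all 3 pairs, so the pairs add nothing for these 7. No further member was higher in all 3 pairs, beside 25.9% of all genes. For 5 of the 7 the gap between the groups was under 15% of the level. The SD of log2 CPM within a group exceeded that of 90% of all genes for 8 members, with values from 0.70 for H2-Ab1 to 1.09 for H2-DMb2 against a median of 0.16 over all genes. H2-Oa stood at 0.16.

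Proportions among the presenting genes stayed nearly fixed while their levels moved over a wide range. Cd74 varied 8.64-fold and H2-Aa 8.71-fold across the 6 libraries. Yet the ratio of H2-Aa to H2-Ab1 stayed between 1.46 and 1.71, that of H2-Eb1 to H2-Aa between 0.812 and 0.954, and that of Cd74 to the 3 presenting chains between 1.54 and 1.77. H2-Ob stayed between 10.4% and 13.7% of Cd74. H2-Oa ranged from 4.97% to 33.9% of Cd74, H2-DMa from 2.98% to 6.75% and H2-DMb2 from 1.15% to 2.83%. The lowest share of H2-DMb2 was that of NKG2D- library 1, on 38 counts. H2-DMa made up 2.98%, 3.77% and 3.43% of Cd74 in NKG2D+ and 6.75%, 5.20% and 5.66% in NKG2D- cells, without overlap.

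**Figure D2:**
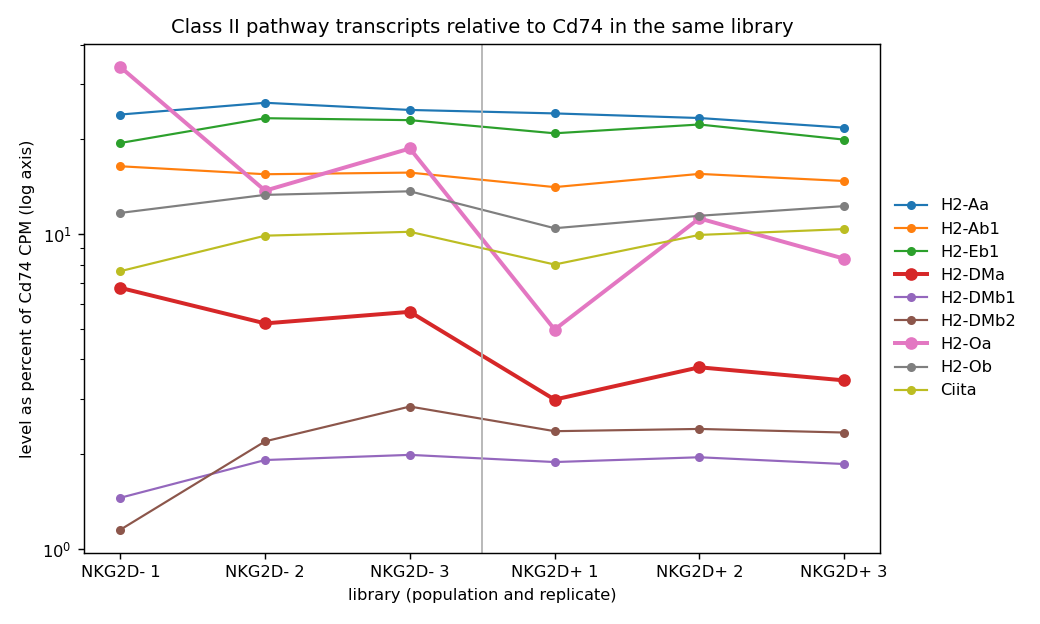
CPM of 9 members as a percent of Cd74 CPM in the same library (vertical log axis), for the 3 NKG2D- and 3 NKG2D+ libraries (horizontal axis). H2-Aa, H2-Ab1, H2-Eb1, H2-Ob and Ciita run nearly level, while H2-Oa spans 4.97% to 33.9% and H2-DMa is lower in every NKG2D+ library. H2-DMb2 spans 1.15% to 2.83%.

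The size of the difference rested on replicate 1. Summed over Cd74 and the 3 presenting chains, the level was 1146, 433 and 505 CPM in NKG2D+ and 133, 388 and 263 CPM in NKG2D- cells. Without both libraries of replicate 1, the median log2 fold change of the members dropped from 1.34 to 0.48, with 0.58 (SE 0.20) for Cd74, 0.39 (SE 0.21) for H2-Aa and 0.60 (SE 0.19) for Ciita. Only NKG2D+ library 1 left out gave a median of 0.80, and only NKG2D- library 1 left out 1.00. No member passed in any of the 9 fits that left out libraries.

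**Figure D3:**
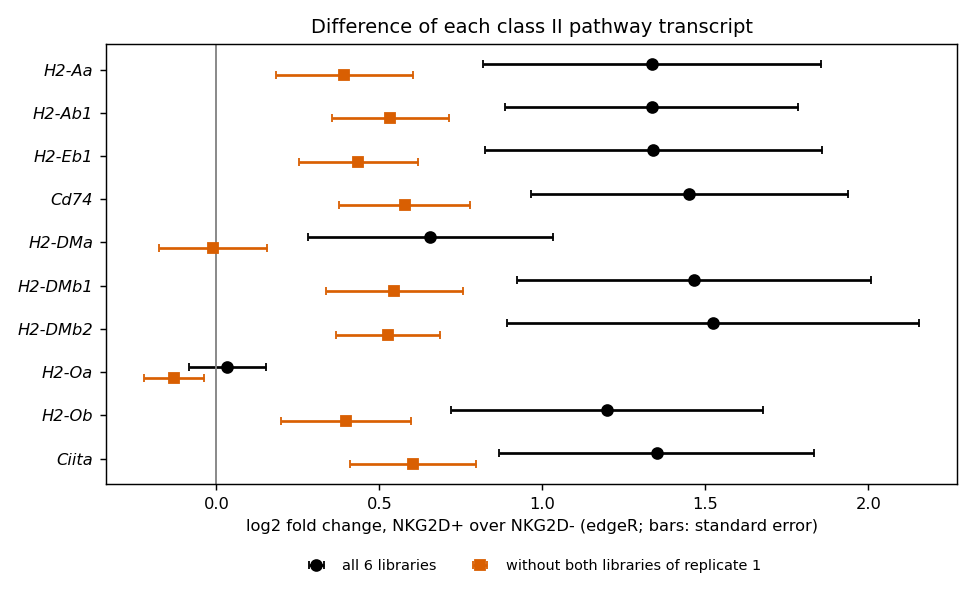
Log2 fold change (NKG2D+ over NKG2D-, horizontal axis) of the 10 members by edgeR with all 6 libraries (black) and without both libraries of replicate 1 (orange); bars are standard errors. Cd74 moves from 1.45 to 0.58, and H2-DMa and H2-Oa lie at -0.01 and -0.13 without replicate 1.

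Of 8 tested enzymes that cut or reduce proteins for class II loading, 0 passed, and the median log2 fold change was 0.29. The change was positive for 7 and negative for 1, Ctsl (log2 fold change -0.62, SE 0.23, adjusted p = 0.194). Groups without overlap were higher in NKG2D+ for 4 enzymes and lower for 1, again Ctsl, beside 15.1% and 14.1% of all genes. Ctsh, an endosomal aminopeptidase, stood at 16.0, 6.68 and 8.73 CPM in NKG2D+ and 2.44, 6.61 and 4.93 CPM in NKG2D- cells. Ifi30, a thiol reductase that opens disulphide bonds of antigens, stood at 37.9, 21.5 and 24.3 CPM against 11.1, 20.9 and 17.9 CPM. Ctss, the protease that trims the invariant chain in B cells and dendritic cells, differed little, at 150 to 181 CPM against 143 to 163 CPM. Ctsd, an aspartic protease of lysosomes, had the smallest p of the list (log2 fold change 0.67, SE 0.17, adjusted p = 0.0987).

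The factors that bind class II promoters were at like levels in both populations. Of 7 tested (Rfx5, Rfxap, Rfxank, Nfya, Nfyb, Nfyc and Creb1), 0 passed, beside 2.02% of all genes. Groups without overlap numbered 0, beside 15.1% of all genes higher and 14.1% lower in NKG2D+. The log2 fold changes ran from -0.11 to 0.10. Their sum was 396 to 436 CPM in NKG2D+ and 409 to 440 CPM in NKG2D- libraries. Nfyc, an NF-Y subunit, had the smallest p (log2 fold change -0.11, SE 0.09, adjusted p = 0.549).

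Among 10 tested genes that regulate Ciita, 1 rose and 0 fell, with a median log2 fold change of 0.10. Prdm1 encodes Blimp-1, a repressor of Ciita, and stood at 48.6, 18.6 and 32.7 CPM in NKG2D+ and 7.43, 10.1 and 7.31 CPM in NKG2D- cells. The fitted log2 fold change was 2.01 (SE 0.35, adjusted p = 0.0443). That call was lost with the replicate block (adjusted p = 0.104), with limma-voom, without the low-count filter and in 6 of the 9 fits that left out libraries. Over 15 alternatives its adjusted p ran from 3.7e-08 to 0.578. Interferon gamma, which induces Ciita, signals through Ifngr1, which stood at 219, 268 and 236 CPM against 347, 275 and 293 CPM (log2 fold change -0.34, adjusted p = 0.159). Its target Irf1 lay at a log2 fold change of -0.10 (adjusted p = 0.409).

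Of 8 genes that turn class II over at the surface or bind it or the invariant chain, 0 passed, with a median log2 fold change of 1.059. March1, a ubiquitin ligase that removes class II from the surface of B cells and dendritic cells, stood at 14.5, 5.24 and 5.91 CPM in NKG2D+ and 1.54, 4.73 and 2.57 CPM in NKG2D- cells. Lag3, an inhibitory receptor that binds class II, had the smallest p, at 31.0, 13.3 and 22.8 CPM against 10.7, 5.80 and 5.396 CPM (log2 fold change 1.63, SE 0.38, adjusted p = 0.0843). Cd4, the coreceptor for class II, stood at 5.38 to 15.2 CPM in NKG2D+ and 10.4 to 10.5 CPM in NKG2D- libraries. Mif, a ligand of the invariant chain, lay at a log2 fold change of -0.29 (adjusted p = 0.234).

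Class I molecules present peptides to CD8 T cells. Of 12 tested class I genes 0 passed, with a median log2 fold change of 0.21, and H2-D1, a class I heavy chain, had the smallest p (log2 fold change 0.59, SE 0.14, adjusted p = 0.0840). On chromosome 17 the class II genes stand among other genes. Of 8 such neighbours tested, 0 passed, and their median log2 fold change was 0.09. Tap1 and Tap2, subunits of the peptide transporter of class I, lie between H2-DMb1 and H2-Ob, at log2 fold changes of 0.35 (SE 0.09, adjusted p = 0.0957) and 0.12 (adjusted p = 0.355). Brd2, between H2-Oa and H2-DMa, stood at 451 to 494 CPM against 439 to 454 CPM.

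Most of the listed B-cell markers moved with the class II transcripts. The 14 genes listed summed to 727, 485 and 539 CPM in NKG2D+ and 179, 381 and 327 CPM in NKG2D- libraries 1, 2 and 3. Of 14 tested, 0 passed, 13 had a positive log2 fold change, the median was 1.397, and 12 were higher in NKG2D+ without overlap, beside 15.1% of all genes. DESeq2 called 6 of the 14, beside 7.89% of all genes as higher. Cd79a, a signalling chain of the B-cell receptor, stood at 105, 39.0 and 43.4 CPM in NKG2D+ and 9.02, 32.9 and 22.6 CPM in NKG2D- libraries. All 12 markers other than Cd22 and Cd72 were highest in NKG2D+ library 1 and lowest in NKG2D- library 1, the same extremes as the members other than H2-Oa. These exceptions were set apart after their values were seen, and the share of all genes with the same extremes was not counted.

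Cd22 and Cd72, which were singled out after their values were seen, had another pattern. Cd22 had the smallest p of the list, at 147, 200 and 207 CPM in NKG2D+ and 57.98, 113 and 115 CPM in NKG2D- cells. The fitted log2 fold change was 0.95 (SE 0.27, adjusted p = 0.123), and without both libraries of replicate 1 it passed (0.83, adjusted p = 0.00663). Cd72 stayed at 61.6 to 72.3 CPM in all 6 libraries. The summed presenting and invariant chains per unit of summed B-cell markers came to 1.58, 0.891 and 0.937 in NKG2D+ and 0.746, 1.02 and 0.804 in NKG2D- cells, with overlap (two-sided exact permutation p = 0.3). With Cd22 left out of the marker sum the ratio came to 1.98, 1.52 and 1.52 against 1.10, 1.45 and 1.24, without overlap (two-sided exact permutation p = 0.1, the lowest possible). With both Cd22 and Cd72 left out it came to 2.21, 1.97 and 1.94 in NKG2D+ and 2.27, 1.98 and 1.88 in NKG2D- cells, with overlap (two-sided exact permutation p = 1). Both omissions were chosen after the values were seen. The part of B-cell RNA in the class II levels was not tested. In bulk samples, fewer cells of a type and less RNA per cell cannot be told apart.

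**Figure D4:**
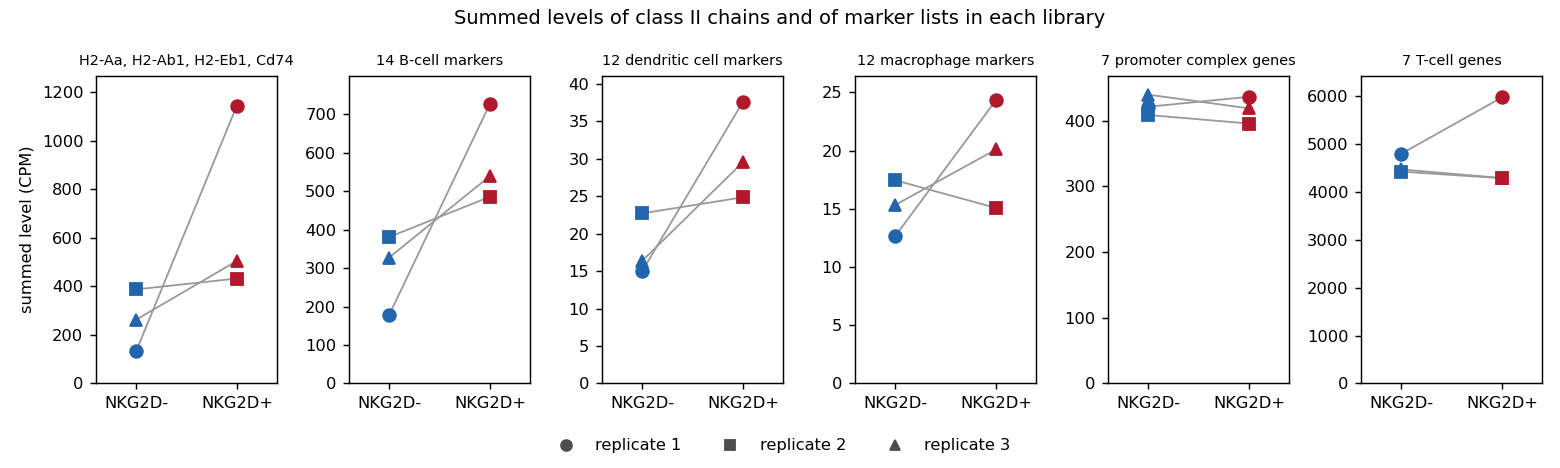
Summed CPM (vertical axes, from 0) of 4 class II chains, of B-cell, dendritic cell and macrophage marker lists, of 7 promoter complex genes and of 7 T-cell genes in each library; marker shape gives the replicate number and grey lines join same-numbered libraries. The class II chains (133 to 1146 CPM) and the B-cell markers (179 to 727 CPM) share their highest and lowest library. So do the dendritic cell markers (15.04 to 37.6 CPM) and the macrophage markers (12.7 to 24.3 CPM).

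Markers of dendritic cells and macrophages were scarce. The 12 dendritic cell genes summed to 37.6, 24.9 and 29.6 CPM in NKG2D+ and 15.04, 22.7 and 16.4 CPM in NKG2D- libraries. The highest sum was in NKG2D+ library 1 and the lowest in NKG2D- library 1, the extremes of the class II chains. Of the 10 tested 0 passed, with a median log2 fold change of 0.31. Itgax, which encodes CD11c, had the smallest p, at 2.81, 4.29 and 3.87 CPM against 0.504, 1.52 and 0.717 CPM (adjusted p = 0.0666). Xcr1 and Fscn1 had the highest means of the list in NKG2D+ cells, at 4.18 to 14.6 and 9.39 to 13.1 CPM by library. Clec9a, a marker of cross-presenting dendritic cells, was at 0.0559 to 0.194 CPM in NKG2D+ and 0.327 to 0.372 CPM in NKG2D- libraries.

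The 12 monocyte and macrophage genes summed to 24.3, 15.1 and 20.1 CPM in NKG2D+ and 12.7, 17.4 and 15.3 CPM in NKG2D- libraries. Again NKG2D+ library 1 was highest and NKG2D- library 1 lowest. Of 10 tested 0 passed, with a median log2 fold change of 1.12, and C1qb, a complement gene, had the smallest p (log2 fold change 1.29, adjusted p = 0.124). Cd14 and Fcgr1 were under 0.2 CPM in each library, and both were at 0 in NKG2D- library 1. Plasma cell genes summed to 1.49 to 4.08 against 1.21 to 3.63 CPM, and 0 of 3 tested passed, with Derl3 at a log2 fold change of 0.80 (adjusted p = 0.313). The 7 T-cell genes had a median log2 fold change of -0.03 and 0 passed, with Cd3d at -0.18 (adjusted p = 0.205). The part of these cell types in the class II levels was not tested.

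The genes most like the class II transcripts were found by Pearson's r of log2 CPM over the 6 libraries with the summed presenting and invariant chains, as a description. The 6 libraries were taken as pairs by replicate number and differ in depth. The 10 closest genes that are no members were Cd300lf, Fgd2, Blnk, Cd79a, Cd24a, Rnase6, Aldh2, Ifi30, Ctsh and Cd40, with r from 0.996 to 0.998. Blnk, an adaptor of B-cell receptor signalling, and Cd79a are in the B-cell list, and Ifi30 and Ctsh are in the list of processing enzymes. Cd40 encodes a costimulatory receptor of B cells and dendritic cells, and stood at a mean of 6.38 in NKG2D+ and 2.77 CPM in NKG2D- cells. Among members outside the sum, H2-DMb1 had r = 0.995, H2-Ob 0.993, Ciita 0.985, H2-DMa 0.970 and H2-DMb2 0.968. H2-Oa had r = 0.63, and 2844 other genes were closer to the sum.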

How the data were processed

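RNA for 6 libraries came from column extraction with DNase, followed by the TruSeq v2 kit, per the labels' protocols. The deposited files hold raw read counts per gene symbol, without normalisation. CASAVA 1.8.2, TopHat2 2.0.4 and mm9 are named in the submitters' processing notes, while the counting program, its annotation and strand option were not given in the sources used here. The 5 summary counts that name no gene were left out of sizes and tests (reads outside genes 14.0% to 15.9% of all, reads aligned to several places 19.7% to 26.2%, reads over several genes 0.715% to 0.836%).

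The main test was the quasi-likelihood test in edgeR 4.0.16 under R 4.3.3 (TMM, robust, legacy mode, group as only term), on 12951 genes kept by filterByExpr (minimum count 10, total 15). P-values were adjusted by Benjamini-Hochberg over all tested genes, and 0.05 was the threshold. DESeq2 1.42.0 and limma-voom 3.58.1 were alternatives, beside RLE and unscaled library sizes, no filter, a replicate block and leaving out libraries. Scripts were tested on simulated data.

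Same-numbered libraries were taken as pairs, since the series text names 3 mice. Deviations from group means correlated at r = 0.20, 0.16 and 0.26 across genes within pairs. P-values of the main test set the group difference against the spread between these libraries within a group, without the pairing. With the replicate block, the spread left after replicate number is used instead. CPM are counts per 1000000 of the TMM-scaled library size. Libraries of a group differed by a chi-square of at least 41.8 per degree of freedom, so none was a copy.

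The members and lists (presenting chains, invariant chain, editor, inhibitor, transactivator, other class II genes, processing enzymes, promoter complex, Ciita regulators, surface turnover, class I, region neighbours, and B, dendritic, macrophage, plasma and T-cell markers) were chosen with earlier results of these data known. Named genes are all members, up to 3 called genes of each list or else the one of smallest p, the 10 genes most like the class II sum, sort genes and region neighbours. Others named were chosen after their values were seen. Exon lengths, overlaps and transcripts are from GENCODE M21 and promoters from RefSeq, both GRCm38, so only sequences carry coordinates.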

Additional observations from a re-analysis of the deposited data

How the results depend on the processing

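Across 15 alternatives, 8 of the 10 members kept a positive log2 fold change in each, and 1 call was made, H2-DMb1 by DESeq2, so that 1 member passed there and 0 in the other 14. H2-DMa turned to -0.010 without both libraries of replicate 1. With libraries left out, H2-DMa ran from -0.010 to 1.14 and H2-Oa from -0.13 to 0.13. H2-Oa turned to -0.13 without both libraries of replicate 1, to -0.08 without NKG2D+ replicate 1 and to -0.02 without NKG2D- replicate 1. Leaving out libraries moved the median of the members between 0.48 and 2.01, with the lowest value without both libraries of replicate 1. Genes higher in NKG2D+ numbered 214, and 1001 by DESeq2, 60 by limma-voom, 57 with the replicate block and 0 to 904 with libraries left out. Genes lower numbered 47, and 441, 23, 11 and 0 to 408 in the same order. Without replicate 3, 0 genes passed in edgeR, while 971 had an unadjusted p under 0.05. Of list genes that are no members, 1 passed, and 17 by DESeq2, 0 by limma-voom, 0 without the low-count filter, 0 with the block and 0 to 12 with libraries left out. Over all genes, in either direction and the same order, 261, 1442, 83, 234, 68 and 0 to 1312 passed. The block ended the call of Prdm1 and made no call of a member. The log2 difference between the populations in class II chains per B-cell marker sum went from 0.37 to -5.96e-06 without Cd22 and Cd72, an alternative chosen after seeing the data. The cause of the other moves was not tested. With 38 to 48 counts, H2-DMb1 and H2-DMb2 in NKG2D- library 1 are the least precise values.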
